A study of Homo sapiens with 5 samples.

Results

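The genes described are 10 targets of WNT and beta-catenin signalling, SP5, AXIN2, LEF1, TCF7, NKD1, LGR5, RNF43, ZNRF3, NOTUM and CDX1. They were taken by gene symbol from a table of 26506 genes, and all 10 were found. Poly(A) RNA of the human embryonic stem cell line H9 was sequenced in 5 libraries. B3GALT5-/- cells (B3GALT5-KO) in 2iLAF medium and wild-type (WT) cells in 5iLAF medium are labelled naive. WT cells in 2iLAF are labelled primed-naive and serve as the control of the design. B3GALT5-KO cells in basal medium and WT cells in basal medium are labelled primed. B3GALT5 encodes a galactosyltransferase that builds the globo-series glycolipid SSEA-3. The design compares its loss in basal medium and in 2iLAF, and holds no knockout library in 5iLAF. Each combination of genotype and medium that was sequenced has 1 library. No difference here therefore has a replicate check, no p-value is given, and the spread between cultures is unknown. Neither the number of knockout clones nor the inhibitors in each medium is named in the labels. In the published formulation of 5iLAF, an inhibitor of the kinase GSK3 is 1 of the components. Whether 2iLAF holds one as well is not given, so the media cannot be set apart by it here.

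In the canonical WNT pathway, a complex built on AXIN, APC and GSK3 marks beta-catenin for destruction. WNT binding to Frizzled and LRP receptors halts that complex, and beta-catenin then enters the nucleus and activates genes with TCF/LEF proteins. Many of the activated genes encode brakes on the same pathway, so their transcripts are widely read as a measure of its output. In human pluripotent cells, raised WNT signalling is known for driving differentiation to primitive streak and mesoderm, while moderate inhibition of GSK3 is used in media for the naive state.

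On GRCh38 (GENCODE release 29), SP5 spans chr2:170715351-170718078 on the plus strand, and LEF1 spans chr4:108047545-108168956 on the minus strand. TCF7 (chr5:134114711-134151865) and CDX1 (chr5:150166795-150184558) are both on the plus strand of chromosome 5. Chromosome 17 holds RNF43 (chr17:58352500-58417595), AXIN2 (chr17:65528563-65561647) and NOTUM (chr17:81952507-81961840), all on the minus strand. NKD1 (chr16:50548330-50649249), LGR5 (chr12:71439770-71586310) and ZNRF3 (chr22:28883592-29057487) are on the plus strand. The deposited table carries no coordinates and the submitters' notes name hg19, so these positions come from the annotation alone.

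RefSeq upstream sequences (GRCh38.p14) were matched for 4 of the 10 genes, SP5, LEF1, TCF7 and RNF43, in 6 windows of 250 bases before a transcription start. They were searched on both strands for the TCF/LEF consensus, the letters CTTTG followed by 2 letters that are each A or T, which gives 4 words of 7 letters. None of the matches found overlap. Of all 35116 such windows, 12.0% held at least 1 word, and 0.122% held 3 or more. The SP5 window held 3, at 148 to 142, 109 to 103 and 84 to 78 bases before the start. Its letters were 45.6% G or C, against a median of 58% over all windows. The shares given for all windows are therefore not those of windows of like composition. The window of the more downstream TCF7 start held 1, at 50 to 44 bases before it. The other TCF7 window, the LEF1 window and both RNF43 windows held none of these words. By the annotation used here, the LEF1 window and the other TCF7 window also lie inside their genes and overlap their exons. The RNF43 windows lie inside that gene and across its annotated start. The absence of words is therefore not a reading of sequence upstream of the outermost start of these genes. The SP5 and downstream TCF7 windows are shown because they hold the words, written 5′ to 3′ on the gene's strand with the words in capitals. Neither window overlaps an annotated exon, and the TCF7 window lies inside the gene.
SP5, chr2:170715087-170715336, plus strand: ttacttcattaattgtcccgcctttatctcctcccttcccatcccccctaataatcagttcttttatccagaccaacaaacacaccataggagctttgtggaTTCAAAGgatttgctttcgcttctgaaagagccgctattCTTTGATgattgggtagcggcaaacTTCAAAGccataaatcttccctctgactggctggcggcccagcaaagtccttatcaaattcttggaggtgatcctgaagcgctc
TCF7, chr5:134123368-134123617, plus strand: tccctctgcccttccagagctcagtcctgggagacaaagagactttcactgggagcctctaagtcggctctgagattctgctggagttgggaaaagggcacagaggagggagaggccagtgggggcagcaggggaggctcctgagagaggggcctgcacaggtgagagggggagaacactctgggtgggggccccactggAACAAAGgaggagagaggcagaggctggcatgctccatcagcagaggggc
A match to these words is a description of sequence and not a binding site.

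Before the values, the labels were set against marker genes. All 8 pluripotency genes looked for, among them POU5F1, SOX2 and NANOG, stood above 1 TPM (a level scaled for gene length and to the same total in each library) in each library. Their levels were not equal, however. NANOG stood at 99.0 TPM in B3GALT5-KO 2iLAF, 124 in WT 5iLAF, 16.5 in WT 2iLAF, 154 in B3GALT5-KO basal and 171 in WT basal. In the same order, SOX2 stood at 55.3, 65.6, 324, 190 and 161 TPM, and POU5F1 at 1601, 1944, 1099, 3098 and 3350 TPM. Of 8 naive markers, 3 (ARGFX, DPPA5 and KLF17) had a listed 0 in the B3GALT5-KO 2iLAF library and stood at 0.05, 0.20 and 0.12 TPM in WT 5iLAF. The other 5 stood at 1 TPM or more in both libraries labelled naive. Of these, 4 were at least 2-fold higher in B3GALT5-KO 2iLAF than in B3GALT5-KO basal and 3 were so in WT 5iLAF against WT basal, with none lower. DNMT3L, the highest, stood at 51.4 TPM in B3GALT5-KO 2iLAF, 76.4 in WT 5iLAF and 1.57 in WT 2iLAF, and at 0.04 TPM in each basal library. The naive markers thus divided, and the label naive is used here as a name. The 8 primed markers, all at 1 TPM or more in each library, summed to 658 TPM in B3GALT5-KO 2iLAF, 648 in WT 5iLAF, 2247 in WT 2iLAF, 3420 in B3GALT5-KO basal and 3187 in WT basal. Summed levels of 8 primitive streak and mesoderm markers were 508 TPM in B3GALT5-KO 2iLAF and 556 TPM in WT 5iLAF, with all 8 at 1 TPM or more in each. The sums were 6.73 TPM in WT 2iLAF, 3.05 TPM in B3GALT5-KO basal and 5.25 TPM in WT basal, with MSGN1 listed at 0 in all 3 and HAND1 in both basal libraries. The 6 endoderm markers summed to 1015 TPM in B3GALT5-KO 2iLAF and 1968 in WT 5iLAF, against 3.18 in WT 2iLAF, 5.49 in B3GALT5-KO basal and 6.60 in WT basal, and CER1 made up 852 and 1832 TPM of the sums in the libraries labelled naive. SOX17 was listed at 0 in WT 2iLAF and B3GALT5-KO basal, and FOXA2 and GATA4 in WT 2iLAF. The 7 neuroectoderm markers summed to 1.31 TPM in B3GALT5-KO 2iLAF, 0.70 in WT 5iLAF, 212 in WT 2iLAF, 14.0 in B3GALT5-KO basal and 4.5 in WT basal, with SOX1 and LHX5 listed at 0 in both libraries labelled naive. These markers divided in WT 2iLAF, where FEZF1 stood at 96.6 TPM, LHX5 at 89.7, SIX3 at 20.1 and OTX1 at 5.05. PAX6 and SOX1 stood at 0.27 TPM there and LHX2 was listed at 0. SOX1 did not pass 0.27 TPM in any library. The 7 trophoblast markers summed to 58.6 TPM in WT 2iLAF and to between 9.50 and 13.8 TPM elsewhere, with CGA listed at 0 throughout. The 8 granulocyte markers summed to 1023 TPM in B3GALT5-KO 2iLAF and to between 0.98 and 1.90 TPM elsewhere, with S100A8, ELANE and FCGR3B listed at 0 in those other libraries. The 8 fibroblast markers summed to 5477 TPM in B3GALT5-KO 2iLAF, 1841 in WT 5iLAF, 201.4 in WT 2iLAF, 845 in B3GALT5-KO basal and 787 in WT basal, of which THY1, also a surface marker of primed cells, made up 754 and 716 TPM in the basal libraries. DCN and FAP, the fibroblast markers at 0, were so in WT 2iLAF and both basal libraries. The part of these cell types in the results was not tested, and in bulk RNA fewer cells of a type and less RNA per cell cannot be told apart.

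Of the 10 target genes, 9 stood higher in both libraries labelled naive than in any of the other 3, and ZNRF3 was the exception. The same holds for 29.3% of the 15761 genes that reached 1 TPM in at least 1 library, all 10 target genes included. Together the 10 genes summed to 364 TPM in B3GALT5-KO 2iLAF and 331 TPM in WT 5iLAF, against 42.9 TPM in WT 2iLAF, 34.3 TPM in B3GALT5-KO basal and 31.4 TPM in WT basal. The count of genes at 10 TPM or more was 7 in B3GALT5-KO 2iLAF, 8 in WT 5iLAF, 1 in WT 2iLAF, 2 in B3GALT5-KO basal and 0 in WT basal. SP5 alone supplied 33.5% of the sum in B3GALT5-KO 2iLAF and 33.1% in WT 5iLAF, and 2.38% in WT 2iLAF. The plot of levels by library shows this division gene by gene. LGR5 and CDX1 reached 1 TPM only in the libraries labelled naive, so their entry into the comparisons rests on those libraries.

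**Figure D1:**
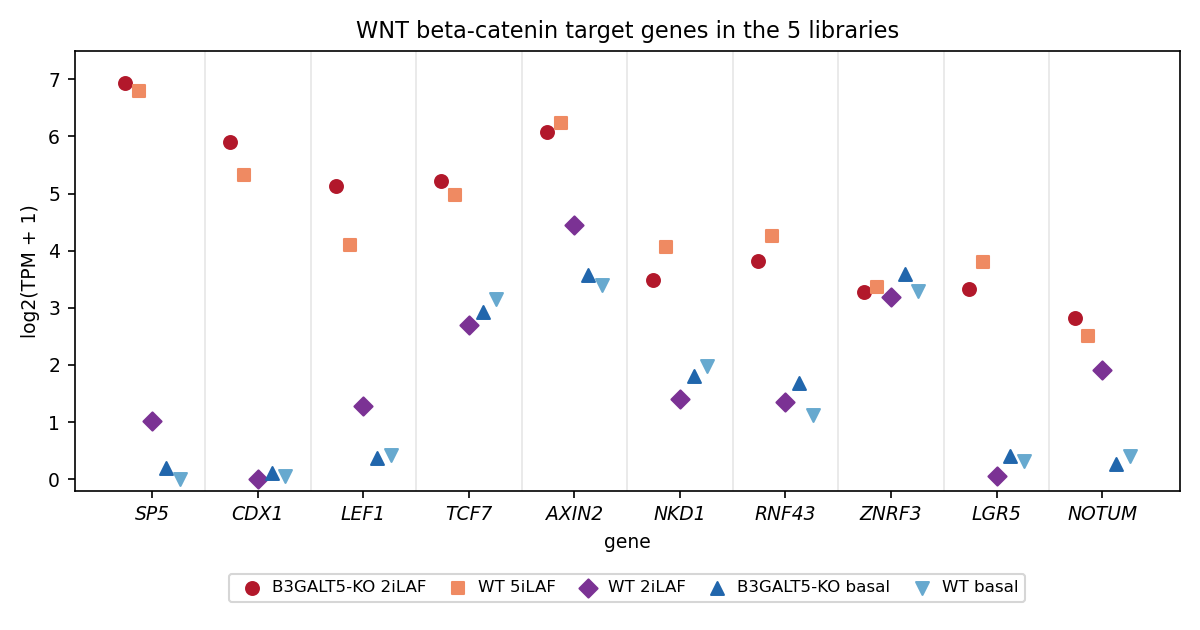
Level of each of the 10 target genes as log2(TPM + 1) on the y axis, with 1 point for each of the 5 libraries and genes ordered by role on the x axis. For 9 genes the B3GALT5-KO 2iLAF and WT 5iLAF points lie above the other 3 points, and the 5 ZNRF3 points lie between 8.12 and 11.01 TPM.

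SP5 encodes a zinc finger transcription factor of the SP family that beta-catenin induces directly in many tissues. It stood at 122 TPM in B3GALT5-KO 2iLAF, 109.6 in WT 5iLAF, 1.02 in WT 2iLAF, 0.15 in B3GALT5-KO basal and a listed 0 in WT basal. It had the widest range of the 10 genes over the libraries, 6.94 on the log2(TPM + 1) scale. CDX1, a caudal-type homeobox factor of the posterior axis and the gut, stood at 58.8 TPM in B3GALT5-KO 2iLAF and 39.2 in WT 5iLAF. It was listed at 0 in WT 2iLAF and stood at 0.08 TPM in B3GALT5-KO basal and 0.04 in WT basal. SP5 and CDX1 were thus at 1.02 TPM or less in 3 libraries and among the 3 most abundant target genes in each library labelled naive. By centred profile they were also nearest to each other among the 10, with a root mean square difference of 0.59 on the log2 scale over the 5 libraries.

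LEF1 and TCF7 encode DNA-binding partners of beta-catenin and are targets themselves. LEF1 stood at 34.1 TPM in B3GALT5-KO 2iLAF, 16.2 in WT 5iLAF, 1.42 in WT 2iLAF, 0.29 in B3GALT5-KO basal and 0.34 in WT basal. TCF7 stood at 36.2 TPM in B3GALT5-KO 2iLAF, 30.3 in WT 5iLAF, 5.53 in WT 2iLAF, 6.59 in B3GALT5-KO basal and 7.94 in WT basal. TCF7 was therefore measurable in every library, whereas LEF1 was below 1 TPM in both basal libraries. The antisense gene LEF1-AS1 overlaps LEF1 and stood at 0.84 TPM in B3GALT5-KO 2iLAF, 0.29 in WT 5iLAF and 0 in the other 3. SKP1 overlaps TCF7 on the opposite strand and stood between 276 and 357 TPM in the 5 libraries. Whether strand was used in counting is not given in the sources used here, so reads of overlapping antisense pairs may not be separable. LEF1 and TCF7 are also expressed in T cells, and 6 T cell markers, chosen after values were seen, summed to 4.77 TPM in B3GALT5-KO 2iLAF, 0.41 in WT 5iLAF, 1.64 in WT 2iLAF, 1.42 in B3GALT5-KO basal and 1.43 in WT basal.

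TCF7L1 and TCF7L2 complete the TCF/LEF family, and TCF7L1 is known in stem cells as a repressor of WNT targets. TCF7L1 stood at 15.1 TPM in B3GALT5-KO 2iLAF, 13.2 in WT 5iLAF, 136 in WT 2iLAF, 153 in B3GALT5-KO basal and 124 in WT basal. The libraries labelled naive were its lowest, where they were the highest for LEF1 and TCF7. TCF7 and LEF1 together made up 66.9% of the TPM of the 4 family genes in B3GALT5-KO 2iLAF and 57.3% in WT 5iLAF. That share was 3.69% in WT 2iLAF, 3.66% in B3GALT5-KO basal and 5.22% in WT basal. TCF7L2 varied less, between 19.6 and 45.5 TPM, with its highest level in WT 2iLAF.

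**Figure D2:**
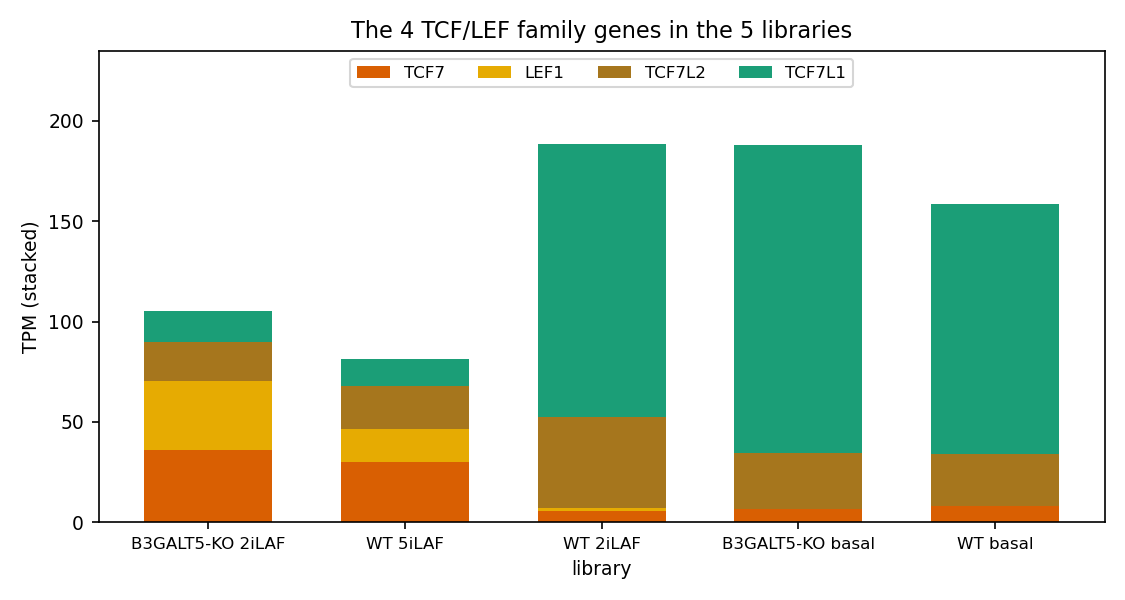
Stacked bars of the TPM of TCF7, LEF1, TCF7L2 and TCF7L1 in each of the 5 libraries, with the y axis from 0. TCF7L1 takes most of the bar in WT 2iLAF and in both basal libraries, and TCF7 with LEF1 take 66.9% and 57.3% in B3GALT5-KO 2iLAF and WT 5iLAF.

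AXIN2 and NKD1 encode intracellular brakes. AXIN2 is the inducible scaffold of the beta-catenin destruction complex, and NKD1 binds Dishevelled. AXIN2 stood at 66.2 TPM in B3GALT5-KO 2iLAF, 74.6 in WT 5iLAF, 20.8 in WT 2iLAF, 10.9 in B3GALT5-KO basal and 9.56 in WT basal. It was the most abundant of the 10 genes in WT 2iLAF and in WT basal, and second to SP5 in both libraries labelled naive. NKD1 stood at 10.2 TPM in B3GALT5-KO 2iLAF, 15.7 in WT 5iLAF, 1.64 in WT 2iLAF, 2.51 in B3GALT5-KO basal and 2.96 in WT basal. In WT 2iLAF the brakes parted, with AXIN2 above both basal libraries and NKD1 below them. AXIN1, the constitutive paralogue, stood between 30.5 and 37.8 TPM in the 5 libraries.

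RNF43 and ZNRF3 encode paralogous membrane ubiquitin ligases that remove Frizzled receptors from the cell surface, and LGR5 encodes a receptor for R-spondins, which block these ligases. RNF43 stood at 13.1 TPM in B3GALT5-KO 2iLAF, 18.2 in WT 5iLAF, 1.56 in WT 2iLAF, 2.23 in B3GALT5-KO basal and 1.18 in WT basal. ZNRF3 stood at 8.72 TPM in B3GALT5-KO 2iLAF, 9.34 in WT 5iLAF, 8.12 in WT 2iLAF, 11.01 in B3GALT5-KO basal and 8.76 in WT basal. RNF43 was the higher of the pair in both libraries labelled naive, at 1.503 times ZNRF3 in B3GALT5-KO 2iLAF and 1.95 times in WT 5iLAF. ZNRF3 was the higher in the others, at 5.21 times RNF43 in WT 2iLAF, 4.94 times in B3GALT5-KO basal and 7.42 times in WT basal. SUPT4H1 overlaps RNF43 on the same strand and stood between 95.5 and 108 TPM, and ZNRF3-AS1 stood between 0.59 and 1.45 TPM. TSPAN8 overlaps LGR5 on the opposite strand and stood between 0.59 and 0.78 TPM. LGR5 stood at 9.0 TPM in B3GALT5-KO 2iLAF, 12.96 in WT 5iLAF, 0.04 in WT 2iLAF, 0.33 in B3GALT5-KO basal and 0.24 in WT basal. Its relatives parted from it. LGR4 was highest in WT 2iLAF at 74.6 TPM, and LGR6 stood between 0.80 and 1.32 TPM throughout.

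NOTUM encodes a secreted enzyme that removes the lipid from WNT proteins and inactivates them. It stood at 6.05 TPM in B3GALT5-KO 2iLAF, 4.65 in WT 5iLAF, 2.77 in WT 2iLAF, 0.20 in B3GALT5-KO basal and 0.33 in WT basal. NOTUM was the lowest of the 10 genes in both libraries labelled naive. Its WT 2iLAF level lay between those libraries and basal medium.

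B3GALT5-KO cells in basal medium were compared with WT cells in basal medium by log2((TPM + 1)/(TPM + 1)), on which the added 1 shrinks the ratios of weakly expressed genes. Genes differing by 2-fold or more on that scale were counted. None of the 10 target genes was higher and none lower, where 0.704% of all genes were higher and 1.05% lower. The median log2 ratio of the 10 was 0.08, against -0.06 for all genes. RNF43 had the largest ratio, 0.57, with 2.23 TPM in the knockout and 1.18 in WT. TCF7 had the most negative, -0.24, with 6.59 TPM in the knockout and 7.94 in WT. SP5, LEF1, LGR5, NOTUM and CDX1 were each at 0.34 TPM or less in both libraries, too low to compare.

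WT cells in 5iLAF were set against WT cells in basal medium. Of the 10 genes, 9 were higher and none lower, where 10.7% of all genes were higher and 11.4% lower. The median log2 ratio was 2.99, against -0.06 for all genes. SP5 had the largest ratio of the 10, 6.79, followed by CDX1 at 5.27. Both rest on basal levels near 0 and move with the pseudocount, over the alternatives from 4.52 to 10.1 for SP5 and from 3.13 to 8.13 for CDX1. Next were LEF1 at 3.68, LGR5 at 3.49, RNF43 at 3.14 and AXIN2 at 2.84. NOTUM (2.09), NKD1 (2.08) and TCF7 (1.81) had the smallest ratios of those counted, and NOTUM stood at 0.86, no longer counted, with a pseudocount of 5. ZNRF3 stood at 0.08. In plain TPM, AXIN2 was 7.81 times, RNF43 15.4 times and TCF7 3.81 times as high in 5iLAF as in basal medium.

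Knockout cells in 2iLAF were next set against knockout cells in basal medium. Again 9 genes were higher and none lower, where 15.9% of all genes were higher and 11.8% lower. The median was 2.52, against 0.02 for all genes. SP5 stood at 6.74 (4.62 to 8.93 over the alternatives), CDX1 at 5.79 (3.65 to 8.35) and LEF1 at 4.77. ZNRF3 stood at -0.31, at 8.72 TPM in 2iLAF against 11.01 in basal medium.

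WT cells in 2iLAF differed less from WT cells in basal medium. Only 3 genes were higher and none lower, where 4.73% of all genes were higher and 7.02% lower. These were NOTUM at 1.503 (2.77 TPM in 2iLAF against 0.33 in basal), AXIN2 at 1.04 (20.8 against 9.56 TPM) and SP5 at 1.01 (1.02 TPM against a listed 0). LEF1 stood just short of the 2-fold rule, at 0.85. NKD1 at -0.58 and TCF7 at -0.45 had the most negative ratios. The median of the 10 was 0.09 and that of all genes -0.13. As deposited, 745 of all genes were higher and 1107 lower, while median-ratio scaling gave 958 higher and 828 lower with an all-gene median of 0, and the same number of target genes counted. All 3 counts were lost with a pseudocount of 5, at which NOTUM stood at 0.54, AXIN2 at 0.82 and SP5 at 0.27, and SP5 was also lost in FPKM (0.62).

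**Figure D3:**
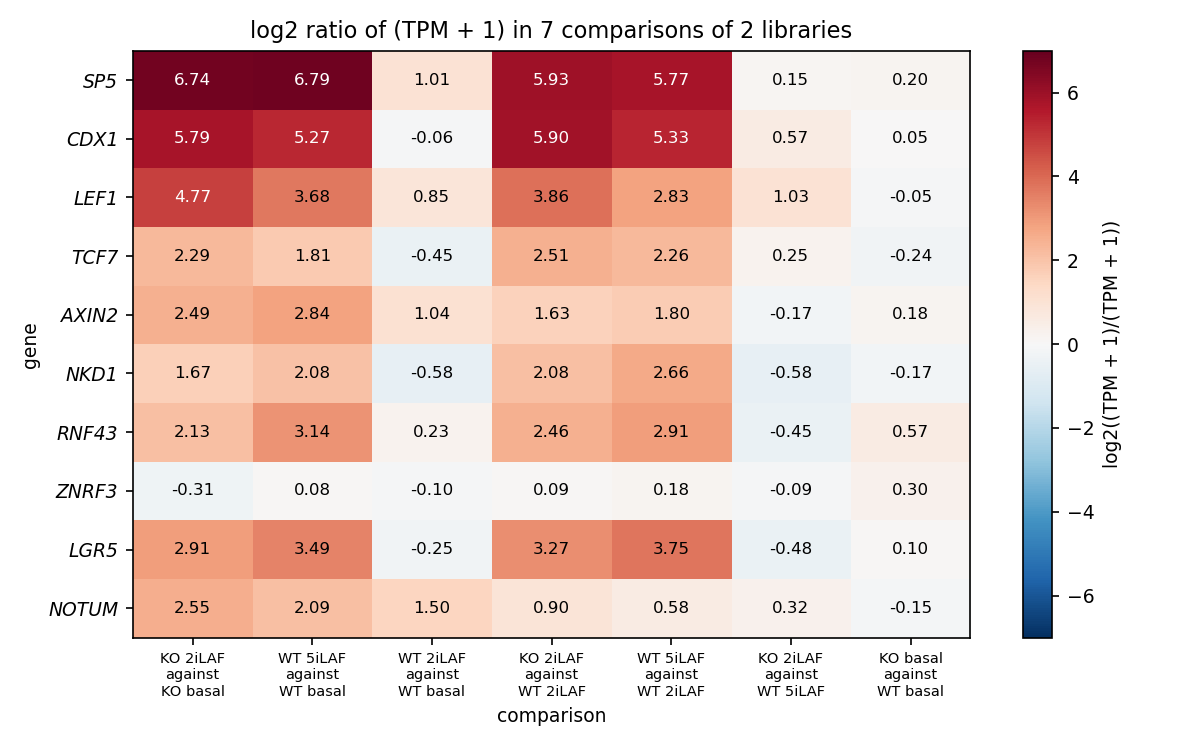
Heat map of log2((TPM + 1)/(TPM + 1)) for the 10 target genes (rows, by role) in 7 comparisons of 2 libraries (columns), each cell printed with its value. Columns that set B3GALT5-KO 2iLAF or WT 5iLAF against a basal library or WT 2iLAF hold values up to 6.79, the ZNRF3 row stays between -0.31 and 0.30, and the comparison of the basal libraries stays between -0.24 and 0.57.

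Within 2iLAF, knockout cells were set against WT cells. In all, 8 genes were higher and none lower, where 16.6% of all genes were higher and 10.8% lower. The median of the 10 was 2.49, against 0.10 for all genes. SP5 had 122 TPM in B3GALT5-KO and 1.02 in WT, a log2 ratio of 5.93 (4.398 to 6.77 over the alternatives). CDX1 had 58.8 TPM in B3GALT5-KO and was listed at 0 in WT, with a ratio of 5.90 (3.67 to 9.20). LEF1 stood at 3.86, LGR5 at 3.27, TCF7 at 2.51, RNF43 at 2.46, NKD1 at 2.08 and AXIN2 at 1.63. NOTUM stood at 0.90 and ZNRF3 at 0.09, so neither was counted. The 2iLAF libraries carry different pluripotency labels, and genotype, label and the marker sums given above differ together and cannot be told apart with 1 library each.

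The difference between 2iLAF and basal medium was set side by side for the genotypes. B3GALT5-KO had the larger value for 9 of the 10 genes, as it had for 58.6% of all genes, and the median of the difference, B3GALT5-KO minus WT, was 2.50 on the log2 scale against 0.19 for all genes. The gap was widest for CDX1 (5.79 in B3GALT5-KO and -0.06 in WT) and SP5 (6.74 in B3GALT5-KO and 1.01 in WT), and narrowest among those 9 for NOTUM (2.55 in B3GALT5-KO and 1.503 in WT). ZNRF3 had -0.31 in B3GALT5-KO and -0.10 in WT. No test of this difference was possible with 1 library a group.

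**Figure D4:**
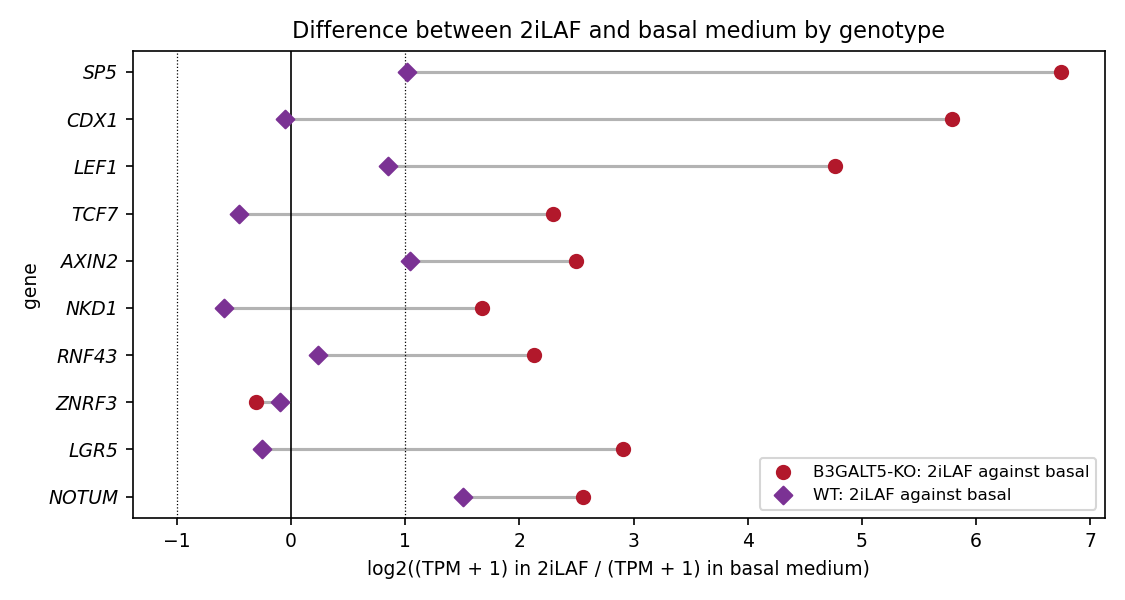
For each of the 10 target genes (y axis), log2 of (TPM + 1) in 2iLAF over (TPM + 1) in basal medium (x axis), in B3GALT5-KO cells (circles) and WT cells (diamonds), with dotted lines at the 2-fold rule. Circles lie right of diamonds for 9 genes, and all diamonds lie between -0.58 and 1.503.

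The libraries labelled naive were compared with each other, B3GALT5-KO 2iLAF against WT 5iLAF, which differ in genotype and in medium. One gene, LEF1, was higher at 1.03, with 34.1 TPM in B3GALT5-KO 2iLAF against 16.2 in WT 5iLAF, and none was lower, where 4.90% of all genes were higher and 1.03% lower. The LEF1 count was lost with a pseudocount of 5 (0.88) and in FPKM (0.94). CDX1 stood at 0.57, NOTUM at 0.32, TCF7 at 0.25 and SP5 at 0.15. NKD1 (-0.58), LGR5 (-0.48), RNF43 (-0.45) and AXIN2 (-0.17) had negative ratios. ZNRF3 stood at -0.09, and all ratios but that of LEF1 lay within 2-fold. Against WT 2iLAF, WT 5iLAF had 8 genes higher and none lower, where 12.2% of all genes were higher and 9.53% lower. SP5 stood at 5.77, CDX1 at 5.33, LGR5 at 3.75 and RNF43 at 2.91, while NOTUM (0.58) and ZNRF3 (0.18) were not counted. Comparisons that share a library are not independent of one another.

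Further genes reported as beta-catenin targets, 21 in number, were read in the same way, and 19 entered. Against B3GALT5-KO basal, B3GALT5-KO 2iLAF had 10 higher and 2 lower (median 1.26), where 15.9% of all genes were higher and 11.8% lower. Against WT basal, WT 5iLAF had 9 higher and 1 lower (median 0.84), where 10.7% of all genes were higher and 11.4% lower. The lists that follow are read against these same shares. T (brachyury), a primitive streak factor, stood at 84.5 TPM in B3GALT5-KO 2iLAF, 118 in WT 5iLAF and 0.26 or less in the others. DKK1, a secreted WNT antagonist, stood at 40.3 TPM in B3GALT5-KO 2iLAF, 67.7 in WT 5iLAF, 2.95 in WT 2iLAF, 1.96 in B3GALT5-KO basal and 2.42 in WT basal. CDX4 stood at 41.0 TPM in B3GALT5-KO 2iLAF and 8.11 in WT 5iLAF, with 1.75 or less elsewhere. The lower genes were FZD7 in both comparisons, given with the receptors below, and NKD2 in the knockout comparison. NKD2 stood at 4.52 TPM in B3GALT5-KO 2iLAF, 7.40 in WT 5iLAF, 4.53 in WT 2iLAF, 10.7 in B3GALT5-KO basal and 12.7 in WT basal. Other genes of that list also departed from the pattern of T, DKK1 and CDX4. TNFRSF19, a receptor of the TNF family, was also high in WT 2iLAF, at 19.6 TPM against 0.37 in WT basal. MYC stood at 54.3 TPM in B3GALT5-KO 2iLAF, 54.8 in WT 5iLAF, 11.8 in WT 2iLAF, 94.7 in B3GALT5-KO basal and 72.7 in WT basal. The cyclin gene CCND1 was not counted in any comparison, at 78.5 to 147 TPM.

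The 14 genes of the destruction complex and its regulators were near level between the libraries labelled naive and basal medium. With medians of 0.10 and 0.00, none was counted in B3GALT5-KO 2iLAF or in WT 5iLAF, each against basal medium of its genotype. In WT 2iLAF against WT basal, 1 was higher, APC2 at 1.05 (1.23 TPM against 0.08), and none lower. In that comparison 4.73% of all genes were higher and 7.02% lower. CTNNB1, beta-catenin itself, stood at 402 TPM in B3GALT5-KO 2iLAF, 478 in WT 5iLAF, 384 in WT 2iLAF, 346 in B3GALT5-KO basal and 409 in WT basal. GSK3B stood between 20.4 and 25.2 TPM. Of 11 other TCF factors, coactivators and corepressors, 1 was higher and 3 lower in B3GALT5-KO 2iLAF and in WT 5iLAF, each against basal medium of its genotype. The higher one was PYGO1, a beta-catenin coactivator (3.52 TPM in B3GALT5-KO 2iLAF against 0.22 in B3GALT5-KO basal), in the knockout comparison, and the corepressor TLE3 (41.3 TPM in WT 5iLAF against 19.4 in WT basal) in the WT comparison. The lower ones were TCF7L1 and the Groucho-type corepressors TLE1 and TLE2. TLE2 stood at 3.0 TPM in B3GALT5-KO 2iLAF and 1.96 in WT 5iLAF, against 8.12 in WT 2iLAF, 15.6 in B3GALT5-KO basal and 14.96 in WT basal.

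Of 14 receptors and co-receptors, 3 were higher and 3 lower in WT 5iLAF against WT basal, and likewise 3 and 3 in B3GALT5-KO 2iLAF against B3GALT5-KO basal. FZD10 stood at 16.2 TPM in B3GALT5-KO 2iLAF and 12.6 in WT 5iLAF, with 0.81 or less in the others. FZD7, a Frizzled receptor known to be abundant in primed stem cells, stood at 23.0 TPM in B3GALT5-KO 2iLAF, 24.0 in WT 5iLAF, 231 in WT 2iLAF, 103 in B3GALT5-KO basal and 143 in WT basal. WT 2iLAF had the highest FZD5 and FZD8, at 120.4 and 48.6 TPM, against 20.4 and 4.13 in WT basal.

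Of 19 genes for WNT ligands, 14 entered, and 10 were higher and none lower in WT 5iLAF against WT basal (median 1.89). Between the knockout libraries, 9 were higher and 1 lower in 2iLAF (median 1.85). WNT3 stood at 42.1 TPM in B3GALT5-KO 2iLAF, 48.4 in WT 5iLAF, 2.06 in WT 2iLAF, 2.13 in B3GALT5-KO basal and 1.72 in WT basal. WNT8A stood at 58.9 TPM in B3GALT5-KO 2iLAF and 76.1 in WT 5iLAF, and at 0.34 or less elsewhere. RSPO2, an R-spondin and so a ligand of LGR5, stood at 107 TPM in B3GALT5-KO 2iLAF, 6.45 in WT 5iLAF, 0.53 in WT 2iLAF, 0.24 in B3GALT5-KO basal and 0.13 in WT basal. RSPO4 was lower in both libraries labelled naive than in basal medium of the same genotype, by less than 2-fold in the knockout (-0.75). It stood at 3.28 TPM in B3GALT5-KO 2iLAF, 0.78 in WT 5iLAF, 11.6 in WT 2iLAF, 6.18 in B3GALT5-KO basal and 10.9 in WT basal. The 4 R-spondins summed to 114 TPM in B3GALT5-KO 2iLAF, 8.86 in WT 5iLAF, 12.8 in WT 2iLAF, 6.64 in B3GALT5-KO basal and 11.4 in WT basal. Secreted antagonists, 10 of 13 entered, divided in both directions, with 6 higher and 3 lower in B3GALT5-KO 2iLAF against B3GALT5-KO basal and 4 higher and 3 lower in WT 5iLAF against WT basal. CER1, which binds WNT, Nodal and BMP proteins in frogs and is also an endoderm marker, stood at 852 TPM in B3GALT5-KO 2iLAF, 1832 in WT 5iLAF, 0.48 in WT 2iLAF, 3.63 in B3GALT5-KO basal and 3.41 in WT basal. SFRP1 stood at 23.1 TPM in B3GALT5-KO 2iLAF, 26.7 in WT 5iLAF, 501 in WT 2iLAF, 345 in B3GALT5-KO basal and 286 in WT basal.

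**Figure D5:**
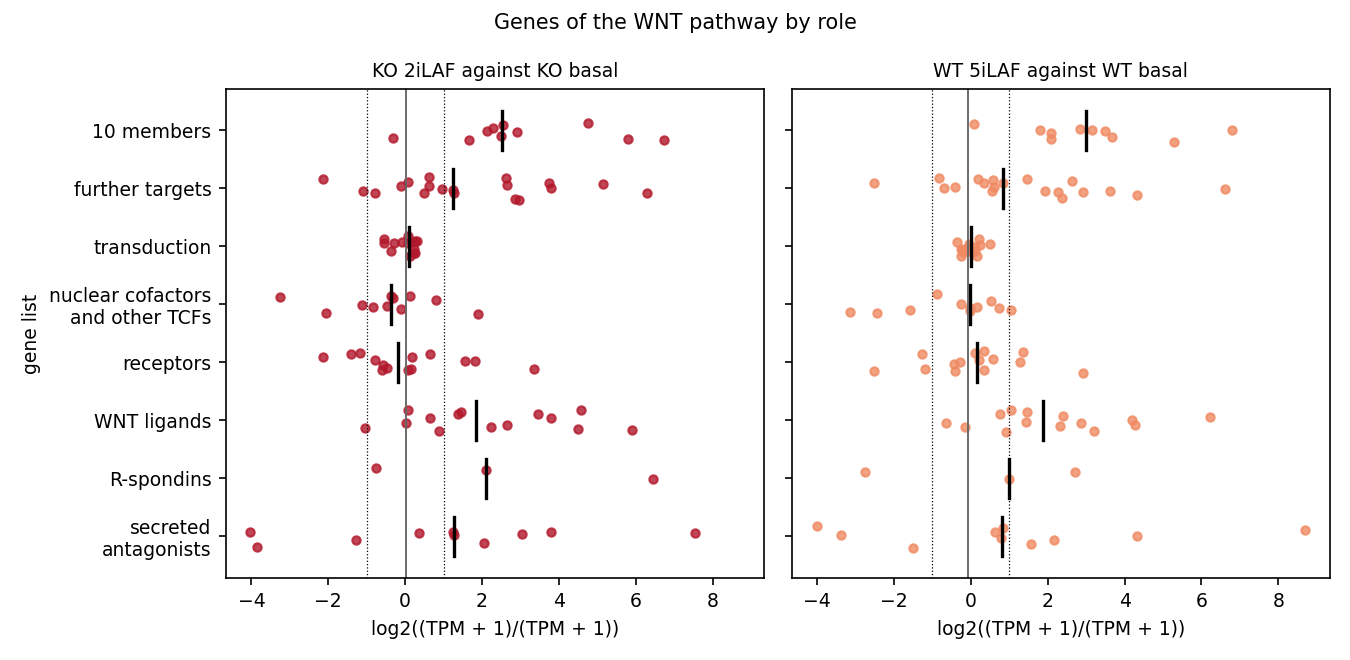
Log2((TPM + 1)/(TPM + 1)) of each gene that entered, by list (y axis), for B3GALT5-KO 2iLAF against B3GALT5-KO basal (left) and WT 5iLAF against WT basal (right), with black bars at list medians, a grey line at the median of all genes and dotted lines at the 2-fold rule. The 10 target genes have medians of 2.52 and 2.99, the WNT ligands 1.85 and 1.89, and the destruction complex genes 0.10 and 0.00.

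Genes with the most similar pattern were sought among 10367 other genes reaching 10 TPM in 1 library, by the root mean square difference of profiles centred on their own mean over the 5 libraries. Nearest to SP5 were T (0.36), WNT8A (0.37), IL32, a cytokine gene (0.40), MYL7, an atrial myosin light chain (0.45), and MEG3, an imprinted RNA (0.46). Nearest to the median profile of the 10 were CFLAR, a caspase-8 inhibitor (0.11), NRP2, a neuropilin (0.13), MRC2, a collagen receptor (0.14), CDA, cytidine deaminase (0.14), and CA2, a carbonic anhydrase (0.16). CFLAR, for example, stood at 43.6 TPM in B3GALT5-KO 2iLAF, 52.2 in WT 5iLAF, 7.05 in WT 2iLAF, 6.77 in B3GALT5-KO basal and 6.41 in WT basal. RNF43 lay nearest that median profile among the 10 (0.20), and SP5 farthest from it (1.86). Over 5 libraries of which 2 stand apart from 3, many genes share such a profile.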

How the data were processed

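One table was deposited, with TPM (transcript abundance scaled to 1 total per library) and FPKM (fragments scaled by gene length and library) for 26506 genes in 5 libraries, per the file headers. The submitters' processing notes name Trimmomatic 0.39, Bowtie2 2.3.4.1, RSEM 1.2.28 and build hg19. No source used here gives the annotation or the strand setting. RSEM shares out ambiguous reads by estimation, which can mix paralogues. Counts were not in the table. Low FPKM values (0.15 to 0.6) showed no whole-read steps, with at most 6.66% of genes in 1 ratio bin, so depth is unknown and no counting interval is given. Genes at 0 are described as listed at 0.

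Each library was its own group, and 7 pairs were compared as log2((TPM + 1)/(TPM + 1)) over the 15761 genes reaching 1 TPM in at least 1 library. A gene was counted at a 2-fold difference or more. With 1 library a group no test was possible. Deposited TPM summed to between 999999 and 1000000 per library, 13729 to 14156 genes reached 1 TPM, and the 10 most abundant took 6.37% to 8.20%. B3GALT5 stood at 1.17 TPM in B3GALT5-KO 2iLAF, against 5.13 in WT 2iLAF, and in basal medium at 5.98 in B3GALT5-KO, against 9.31 in WT. The edited part of the gene is not given, so this level does not check the knockout.

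The target genes and lists were chosen with earlier results of these data known. The text names all 10 genes, B3GALT5, up to 4 genes of a list with the largest ratios, overlapping genes, and the 5 nearest genes by profile. AXIN1, CTNNB1, GSK3B, CCND1, MYC, NKD2, TCF7L2, LGR4, LGR6, CDX4, TLE1, TLE3, PYGO1, RSPO4, CER1, DNMT3L, FZD5, FZD8, RSPO2, PAX6, SOX1, LHX2 and the T cell markers were in part chosen after their values were seen. Alternatives were a pseudocount of 0.1 or 5, entry of all genes or of those at 5 TPM, median-ratio and trimmed-mean scaling, FPKM, and rules of 1.5-fold and 4-fold. Python 3.11.15, numpy 2.4.6, pandas 2.3.3 and matplotlib 3.10.9 were used, and the procedure was tested on simulated data.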

Additional observations from a re-analysis of the deposited data

Results flagged for a closer look

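For TCF7, NKD1, LGR5 and CDX1 the ratio of 2iLAF over basal medium was positive in the single B3GALT5-KO pair and below 0 in the single WT pair, and the difference was not tested. B3GALT5-KO minus WT was 2.75 for TCF7 (2.29 in B3GALT5-KO and -0.45 in WT), 2.26 for NKD1 (1.67 in B3GALT5-KO and -0.58 in WT), 3.16 for LGR5 (2.91 in B3GALT5-KO and -0.25 in WT) and 5.85 for CDX1 (5.79 in B3GALT5-KO and -0.06 in WT), all on the log2((TPM + 1)/(TPM + 1)) scale. None of the 4 WT values passed 2-fold, so no WT change is reported. LGR5 and CDX1 were below 1 TPM in WT 2iLAF and in both basal libraries, where the sign of the WT value cannot be judged.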

How the results depend on the processing

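Counts of target genes past the size rule were recomputed under 9 alternatives in 7 comparisons, and 118 values stayed within 1.5 times of the reported count while 8 did not. This tally is not a measure of stability. Entry of all genes or of those at 5 TPM could not change a count, since each target gene passed both. The reported counts of lower genes were also all 0. B3GALT5-KO basal against WT basal gained 1 higher gene (SP5, 1.32) with a pseudocount of 0.1. WT 2iLAF against WT basal had 0 higher genes with a pseudocount of 5 and under a 4-fold rule, and 1 lower gene with a pseudocount of 0.1 (LGR5, -1.28) and under a 1.5-fold rule. B3GALT5-KO 2iLAF against WT 5iLAF had 0 higher genes with a pseudocount of 5, in FPKM and under a 4-fold rule. No called ratio of a target gene changed sign. Median ratios ranged from 1.84 to 3.65 in WT 5iLAF against WT basal and from 1.61 to 3.47 in B3GALT5-KO 2iLAF against B3GALT5-KO basal, both ends set by the pseudocount. No paired analysis was possible because each group has 1 library. Depth is unknown, so differences among genes below 1 TPM cannot be judged.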
